A study of Mus musculus with 5 samples.

Results

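The genes described here are 41 genes of DNA replication and cell division, 15 of them for replication and 26 for mitosis, of 22183 mouse genes measured in lenses. They were chosen by symbol, as a fixed list of S-phase and mitotic genes that dividing cells of the lens epithelium use. The list holds no measured value in its rule, but it was chosen with earlier results of these libraries known. All 41 were found in the table, and all 41 passed the filter on low counts. Yap1 encodes a co-activator of transcription in the Hippo pathway. In lenses of its conditional knockout, 14 of the 41 genes were lower than in control lenses and 0 were higher. Of all genes tested, 7.73% were lower and 5.76% higher. Among the 14 were Rrm1 and Rrm2, which encode the subunits of ribonucleotide reductase, the helicase genes Mcm3, Mcm4, Mcm6 and Mcm7, the topoisomerase gene Top2a and the mitotic kinase gene Plk1. Pcna, Tyms and Cks2, which also serve division, had mean levels close to those of control lenses, and E2f1 was measured at a higher mean in the knockout libraries without passing the test. Most of the 41 genes had low counts even in control lenses, with single libraries holding between 5 and 572 counts of each.

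The cKO group (conditional knockout of Yap1) had 2 libraries and the Ctrl group had 3, all from whole lenses of mice at postnatal day 14. Each library came from a pool of 4 to 6 lenses, and such pools are the replicates in every test. Lenses entered the cKO pools by a severe eye phenotype (small eyes with a closed pupillary membrane) from animals of the genotypes Yap1f/f;Cre or Yap1f/+;Cre, so a cKO pool may mix mice that carried a single floxed allele with mice that carried both. Ctrl animals were littermates of the genotypes Yap1f/f or Yap1f/+ that looked normal, and the genotype field calls them WT. Floxed alleles were thus present in both groups. The sources used here do not give the Cre driver, the strain or the sexes of the animals.

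In the lens, division is largely a property of the epithelial sheet on the anterior face, most of all of its germinative zone near the equator, while fibre cells leave the cycle and lose their nuclei. A dividing cell first loads the MCM helicase onto replication origins (licensing), copies its DNA with nucleotides made by ribonucleotide reductase and thymidylate synthase, and then enters mitosis through CDK1 with cyclins A and B. Transcription of the S-phase genes depends on E2F factors, and that of many mitotic genes on the MuvB complex, which binds a promoter element called CHR (cell cycle genes homology region), often beside CCAAT boxes bound by NF-Y.

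The 5 libraries held 22047553 to 25762805 expected counts, that is, counts estimated by the authors' software in which a read may be split between genes. Such split values occurred for 7 of the 41 genes (Tyms, Ccne2, E2f1, Ccna2, Cenpf, Kif20a and Prc1), whose counts are less certain. A level is given in CPM, that is, counts relative to library size after TMM scaling, as mean ± SD with n = 2 for cKO and n = 3 for Ctrl. A gene was called where edgeR's quasi-likelihood test gave a Benjamini-Hochberg adjusted p under 0.05 over the 11724 genes tested, and "rose" and "fell" are used of called genes alone. Of the genes tested, 7.73% were called lower and 5.76% were called higher in cKO. Yap1 itself had 92 (cKO 1) and 61 (cKO 2) counts against 155, 133 and 143 in the Ctrl libraries, a log2 fold change of −1.08 (SE 0.33) that missed the threshold (edgeR adjusted p = 0.0759). The Y-linked genes Ddx3y and Eif2s3y had 0 counts in both cKO libraries and 558 to 854 in the Ctrl libraries, so sex and genotype cannot be told apart here. In pooled whole lenses, fewer dividing cells and less RNA per cell cannot be told apart either.

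Among the 41 genes, 35 had a negative and 6 a positive log2 fold change, with a median of −1.95 and a range of −8.45 to 1.03, while the median over all genes tested was −0.06. The lower end of that range is the fitted change of Plk1, which had 0 counts in both cKO libraries, and it depends on the prior count. The 14 calls, all lower, stand beside the 7.73% of tested genes called lower and the 5.76% called higher. At an unadjusted p under 0.05, edgeR gave 20 of the 41 lower and 0 higher, which adds Mcm2, Mcm5, Cdk1, Bub1b, Cdc20 and Prc1 to the 14. Of all 11724 genes tested, 2043 were lower and 1737 higher at that unadjusted threshold. In 29 of the 41, both cKO libraries lay below all Ctrl libraries in CPM after TMM scaling, an arrangement that 28.7% of the genes tested had. Only Ccne1 had both cKO libraries above all Ctrl libraries, where 22.8% of the genes tested did, and in the other 11 the groups overlapped. For 24 of the 41 genes (4 replication and 20 mitosis genes), the filter of 0.413 CPM in at least 2 libraries was reached through Ctrl libraries and not by both cKO libraries. Passing in that way favours genes that are lower in cKO, although Cenpf, with a positive change, is among the 24, so the counts and medians over these genes are descriptions. Among all genes tested, 1772 passed in that way. Of the called genes, Mcm3, Cdc6, Rrm2, Plk1, Bub1, Kif11, Kif20a, Nusap1 and Top2a were among the 24, and neither cKO library reached the filter for them. The called genes Mcm4, Mcm6, Mcm7, Rrm1 and Ccna2 reached it in both cKO libraries.

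**Figure D1:**
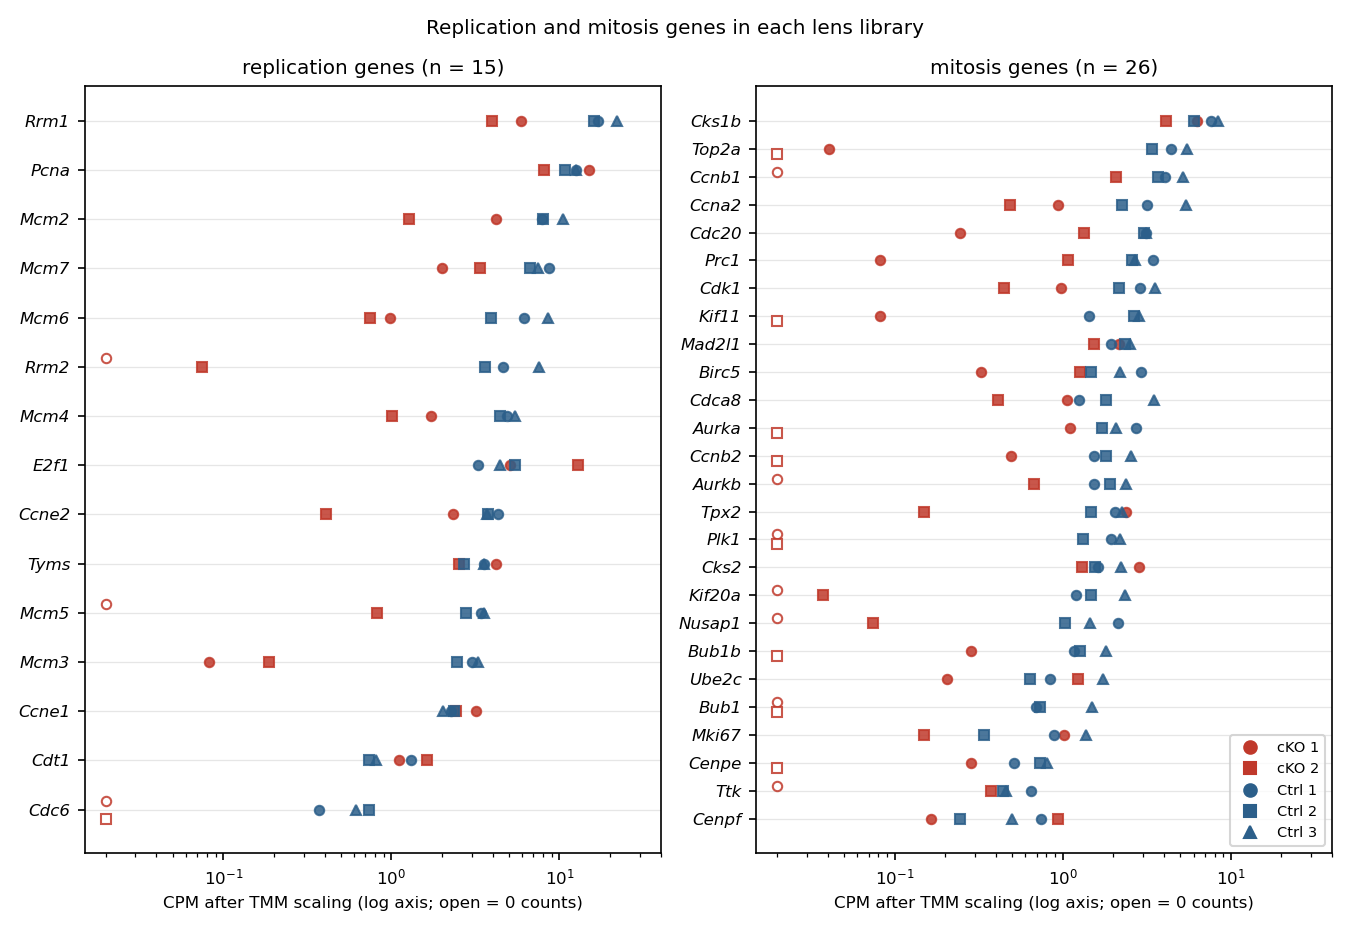
Level of each of the 41 genes in each library, in CPM on a log axis, with cKO and Ctrl libraries in different colours and open markers at the left edge for 0 counts. All Ctrl libraries had counts of all 41 genes, whereas 16 genes were at 0 in at least 1 cKO library.

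**Figure D2:**
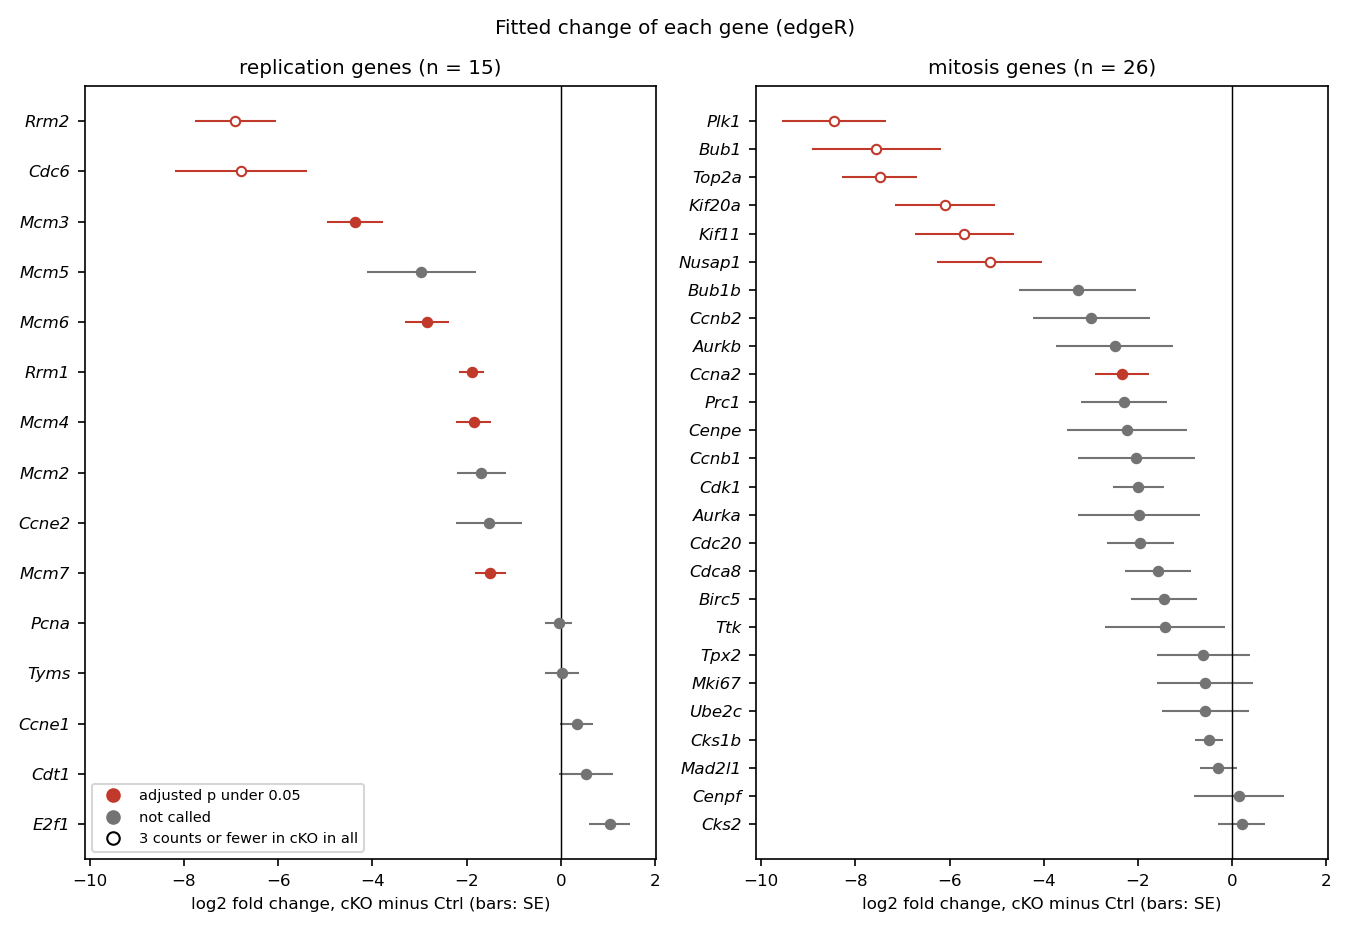
Log2 fold change of cKO against Ctrl for the 41 genes by role, with bars of ± SE, called genes in red and open symbols for genes with at most 3 counts in the cKO libraries in all, whose fitted change depends on the prior count. The 14 called genes lie on the negative side, and 6 genes lie above 0.

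Promoters are shown for some genes of each class. In each class the 2 called genes with the highest mean Ctrl level that RefSeq's table covers were taken (Rrm1 and Mcm7 for replication, Top2a and Kif11 for mitosis). Mcm6, with the most E2F letters, and Cdk1, the mitosis gene with E2F letters, were added after the matches were seen. Each stretch is 200 bases on build GRCm38.p6, 5′ to 3′ in the direction of transcription that RefSeq's table gives. It ends at the base before the start site, except for Cdk1, where it ends 27 bases before it. For Kif11 and Mcm6, bases just after the start were not found in a GENCODE M21 transcript of the gene. Their start and direction thus rest on RefSeq's table alone. Capitals mark matches to the letters of an E2F site (TTTCCCGC, TTTCGCGC, TTTGCCGC or TTTGGCGC), of a CHR (TTTGAA or TTCGAA) or of a CCAAT box (CCAAT), on either strand. The stretches are chr7:102441495-102441694 on the plus strand for Rrm1, chr5:138171267-138171466 on the minus strand for Mcm7, chr1:128359706-128359905 on the minus strand for Mcm6, chr11:99024190-99024389 on the minus strand for Top2a, chr19:37376182-37376381 on the plus strand for Kif11 and chr10:69352939-69353138 on the minus strand for Cdk1.
Rrm1: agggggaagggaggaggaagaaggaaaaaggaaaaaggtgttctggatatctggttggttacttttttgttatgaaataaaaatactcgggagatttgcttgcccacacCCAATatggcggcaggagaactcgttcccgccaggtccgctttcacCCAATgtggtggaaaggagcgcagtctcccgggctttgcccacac
Mcm7: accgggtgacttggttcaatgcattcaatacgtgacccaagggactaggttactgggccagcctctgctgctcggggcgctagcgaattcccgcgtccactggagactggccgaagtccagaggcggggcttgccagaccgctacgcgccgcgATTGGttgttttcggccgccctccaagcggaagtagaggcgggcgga
Mcm6: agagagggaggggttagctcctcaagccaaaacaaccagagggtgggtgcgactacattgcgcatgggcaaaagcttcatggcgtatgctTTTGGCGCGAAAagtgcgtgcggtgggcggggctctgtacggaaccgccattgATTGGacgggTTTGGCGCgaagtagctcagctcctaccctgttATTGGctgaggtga
Top2a: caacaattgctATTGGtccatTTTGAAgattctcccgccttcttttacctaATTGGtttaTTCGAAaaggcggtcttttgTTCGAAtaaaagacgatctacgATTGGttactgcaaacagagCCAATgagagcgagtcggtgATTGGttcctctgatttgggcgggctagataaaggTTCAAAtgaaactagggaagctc
Kif11: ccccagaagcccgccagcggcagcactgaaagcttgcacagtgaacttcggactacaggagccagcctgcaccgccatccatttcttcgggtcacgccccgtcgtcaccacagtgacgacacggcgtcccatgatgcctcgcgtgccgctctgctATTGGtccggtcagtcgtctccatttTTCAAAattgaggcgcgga
Cdk1: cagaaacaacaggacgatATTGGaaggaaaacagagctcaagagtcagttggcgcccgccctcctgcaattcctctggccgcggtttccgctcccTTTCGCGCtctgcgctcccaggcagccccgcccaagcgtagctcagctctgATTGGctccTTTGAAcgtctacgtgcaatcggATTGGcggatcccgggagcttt

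The Mcm6 stretch held 3 matches to E2F letters, of which a pair overlap, and 2 CCAAT boxes. Top2a, in contrast, had 4 CHR and 5 CCAAT matches and no E2F letters. Kif11 had 1 CHR and 1 CCAAT match, and Cdk1 had 1 E2F, 1 CHR and 3 CCAAT matches. Rrm1 and Mcm7 showed CCAAT boxes alone, 2 and 1, in the printed stretch. RefSeq's table gave Mcm7 more than 1 window of 300 bases, with 2 E2F, 1 CHR and 3 CCAAT matches in 1 of them. Over windows of 300 bases (250 before to 50 after the start), E2F letters were in 6 of 14 windows of replication genes (42.9%), 1 of 23 of mitosis genes (4.35%) and 744 of 32851 windows of all genes (2.26%). CHR letters ran the other way, in 2 of 14 replication windows (14.3%) and 17 of 23 mitosis windows (73.9%), with 19.2% of all windows. CCAAT boxes were in 9 of 14 and in 20 of 23 windows, and in 37.4% of all windows. The median GC content was 59.5% in replication windows, 59.0% in mitosis windows and 52.7% in all windows. The table covered 35 of the 41 genes with 37 windows, and Mcm4, Ccne2, Aurkb, Kif20a, Ccna2 and Tpx2 were not matched. Set against the expression calls, E2F letters stood in 4 of 12 windows of called genes and 3 of 25 of the others, and CHR letters in 5 of 12 and 14 of 25. A match is a description of letters, not of binding.

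**Figure D3:**
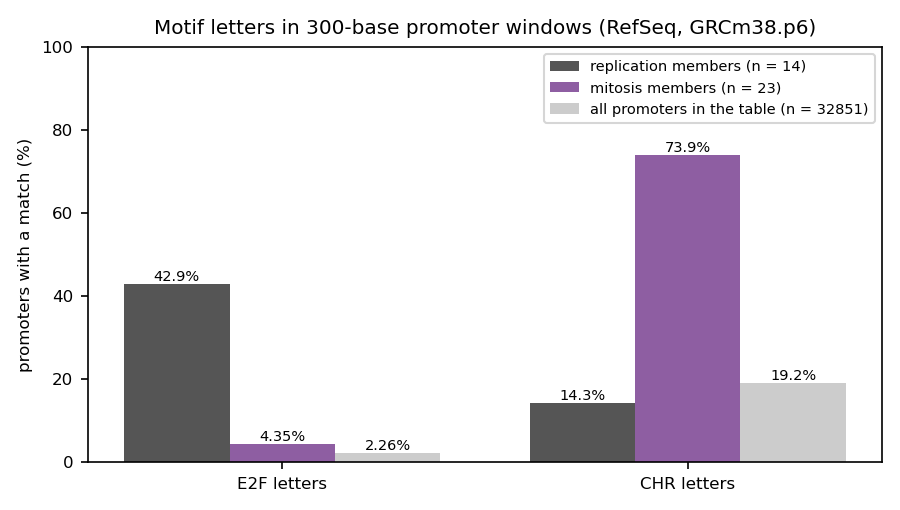
Percentage of promoter windows (300 bases) that hold E2F letters or CHR letters, as bars for replication genes, mitosis genes and all genes in RefSeq's table. Replication windows stand at 42.9% for E2F and 14.3% for CHR letters, mitosis windows at 4.35% and 73.9%.

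The licensing genes were the group with the most calls, 5 lower of 8, beside 7.73% of all genes tested called lower. Their median log2 fold change was −2.35. Below, counts are given for cKO 1 and 2 and then for Ctrl 1, 2 and 3. Mcm2 to Mcm7 encode the 6 subunits of the replicative helicase. Mcm2, the most abundant of the group in Ctrl, had 103 and 34 counts in cKO and 169, 164 and 275 in Ctrl. The groups did not overlap, yet cKO 1 was well above cKO 2, and the change of −1.69 (SE 0.52) was not called (edgeR adjusted p = 0.0779). Mcm7 had 49 and 90 counts against 186, 136 and 194, or 2.68 ± 0.955 against 7.57 ± 1.00 CPM. It fell by 1.5 on the log2 scale (edgeR adjusted p = 0.0354, SE 0.33), with no overlap between groups, but was not called with libraries scaled by total counts alone (edgeR adjusted p = 0.0653). Mcm6 had 24 and 20 counts against 133, 80 and 222, and the cKO libraries were alike while Ctrl 3 stood highest. Mcm6 fell by 2.84 (edgeR adjusted p = 0.0193, SE 0.46). Mcm4 had 42 and 27 counts against 105, 91 and 141, a fall of 1.85 (edgeR adjusted p = 0.0297, SE 0.37). For Mcm3 there were 2 and 5 counts against 65, 50 and 85. This was the largest change among the helicase genes, from 2.91 ± 0.422 to 0.134 ± 0.0739 CPM, a log2 change of −4.38 (edgeR adjusted p = 0.0137, SE 0.60).

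Mcm5, the remaining subunit, had 0 counts in cKO 1 and 22 in cKO 2 against 74, 57 and 93 in Ctrl, and with so wide a gap between the cKO libraries its change of −2.96 (SE 1.16) was not called (edgeR adjusted p = 0.140). The changes of the 6 subunits of the helicase ring were thus spread from −1.5 to −4.38 on the log2 scale, all on the negative side. Of the 6, 4 were called, beside 7.73% of all genes tested called lower. Cdc6 and Cdt1 bring the helicase to the origin. Cdc6 had 0 counts in both cKO libraries against 8, 15 and 16 in Ctrl and was called lower (edgeR adjusted p = 0.0391). Its mean Ctrl level was 4.89-fold above a floor of 3 counts in each cKO library. Such a bound, written "at least" below, takes the Ctrl mean as exact and leaves out the spread between libraries. Cdc6 was not called without the filter on low counts (edgeR adjusted p = 0.0530) or on log2(FPKM + 1) (limma adjusted p = 0.0826). Cdt1 went the other way, with 27 and 44 counts against 28, 15 and 21. Its groups overlapped, and the change of 0.53 (SE 0.56) was not called (edgeR adjusted p = 0.564). Summed over the 8 genes, licensing stood at 10.1 and 9.01 CPM in cKO 1 and 2 and at 35.6, 29.7 and 40.2 CPM in Ctrl, 27.2% of the Ctrl mean.

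DNA synthesis and nucleotide supply split into genes that fell and genes that did not. Rrm1, the large subunit of ribonucleotide reductase and the most abundant of all 41 genes in Ctrl by CPM, had 145 and 106 counts in cKO and 365, 330 and 572 in Ctrl. The highest cKO library was well below the lowest Ctrl library, and Rrm1 fell by 1.89 (edgeR adjusted p = 0.0145, SE 0.27) from 18.3 ± 3.17 to 4.94 ± 1.40 CPM. Rrm2, the small subunit, which cells make mainly in S phase, had 0 and 2 counts against 99, 74 and 197. The ratio of Ctrl to cKO was 139 (exact 95% interval 38.3 to 1156, counting error only), and the gene was called lower (edgeR adjusted p = 0.0112). Pcna, the sliding clamp of the replication fork, which also serves DNA repair, had 369 and 218 counts against 269, 221 and 327. Here cKO 1 was the highest and cKO 2 the lowest of the 5 libraries in counts, with means of 11.6 ± 4.92 and 11.9 ± 0.999 CPM and a change of −0.04 (edgeR adjusted p = 0.938, SE 0.29). Tyms, thymidylate synthase, was likewise not called at 0.03 (SE 0.36), from 102 and 68 counts in cKO and 77, 55 and 93 in Ctrl (edgeR adjusted p = 0.969). For both genes the groups overlapped.

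None of the 3 genes of the switch from G1 to S phase was called. E2f1, which encodes a transcription factor for S-phase genes, had 124 and 345 counts in cKO and 71, 111 and 115 in Ctrl. Only cKO 2 was clearly above the Ctrl range in CPM, since cKO 1 (5.06 CPM) lay within it, and the change of 1.03 (SE 0.44) was not called (edgeR adjusted p = 0.163). Without cKO 1, it was 1.54 and was called higher (edgeR adjusted p = 0.00394), with the lone cKO library assumed to vary like the others. Ccne1, encoding cyclin E1, had 78 and 65 counts against 49, 48 and 53, all cKO above all Ctrl, as for 22.8% of the genes tested. Its change was 0.34 (edgeR adjusted p = 0.555, SE 0.35). Ccne2 pointed down, at −1.52 (edgeR adjusted p = 0.191, SE 0.70), with 57 and 11 counts against 93, 77 and 96. In sum the 3 genes were at 10.6 and 15.7 CPM in cKO and at 9.88 to 11.5 CPM in Ctrl, so that this was the only one of the 8 role groups whose sum overlapped between the groups.

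In the group of CDK1, its cyclins and the small CKS subunits, 1 of 6 genes was called, beside 7.73% of all genes tested called lower. Cks1b, the most abundant mitosis gene in Ctrl, binds CDKs and helps the ubiquitin ligase SCF-Skp2 act on p27. It had 154 and 111 counts in cKO and 164, 123 and 220 in Ctrl, with overlapping groups and a change of −0.50 (edgeR adjusted p = 0.297, SE 0.29). Ccnb1, cyclin B1, had 0 counts in cKO 1 and 56 in cKO 2 against 88, 76 and 135, so that cKO 2 lay nearer to Ctrl than cKO 1 did, and the change of −2.04 (SE 1.24) was not called (edgeR adjusted p = 0.310). Ccna2, cyclin A2, which works in S phase as well as in early mitosis, had 23 and 13 counts against 68, 46 and 141. It was the called member, with a fall of 2.34 (edgeR adjusted p = 0.0488, SE 0.58) from 3.60 ± 1.63 to 0.712 ± 0.322 CPM and no overlap. This call was lost with total counts alone (edgeR adjusted p = 0.0530) and on log2(FPKM + 1) (limma adjusted p = 0.0597). Cdk1 was close to the threshold, with 24 and 12 counts against 62, 44 and 92 and a change of −2.0 (edgeR adjusted p = 0.0582, SE 0.54). Ccnb2 had 12 and 0 counts against 33, 37 and 66 and was not called (−2.99, SE 1.24, edgeR adjusted p = 0.157). Cks2, a near relative of Cks1b, had 70 and 35 counts against 35, 32 and 58, with a change of 0.20 (edgeR adjusted p = 0.819, SE 0.50).

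Among the mitotic kinases and the chromosomal passenger complex, 1 of 5 genes was called, beside 7.73% of all genes tested called lower. All 5 had both cKO libraries below all Ctrl libraries in CPM after TMM scaling, as 28.7% of the genes tested did. Plk1, polo-like kinase 1, had 0 counts in both cKO libraries and 42, 27 and 57 in Ctrl. It was at least 15.5-fold lower (edgeR adjusted p = 0.0163). Birc5 (survivin) and Cdca8 (borealin) carry Aurora B to centromeres. Birc5 had 8 and 34 counts against 63, 30 and 57, or 0.797 ± 0.664 against 2.19 ± 0.729 CPM. In CPM cKO 2 reached almost the lowest Ctrl library, and in counts it stood above Ctrl 2. Its change of −1.45 (SE 0.71) was not called (edgeR adjusted p = 0.216). Cdca8 was similar, with 26 and 11 counts against 27, 37 and 91 and a change of −1.57 (edgeR adjusted p = 0.183, SE 0.71). The Aurora kinase genes split between the cKO libraries in opposite ways. Aurka had 27 counts in cKO 1 and 0 in cKO 2 against 35 to 59 in Ctrl, whereas Aurkb had 0 and 18 against 33 to 62, and neither was called. Together the 5 genes summed to 2.49 and 2.35 CPM in cKO and to 10.4, 8.20 and 12.3 CPM in Ctrl.

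The spindle checkpoint holds cells in metaphase by restraining the anaphase-promoting complex until chromosomes are attached. Of its 6 genes here, 1 was called, beside 7.73% of all genes tested called lower. Bub1, a checkpoint kinase, had 0 counts in both cKO libraries and 15, 15 and 39 in Ctrl, at least 8.33-fold lower (edgeR adjusted p = 0.0297), a call lost on log2(FPKM + 1) (limma adjusted p = 0.0803). Cdc20, the activator that the checkpoint restrains, had 6 and 36 counts against 67, 62 and 82. It showed the tightest Ctrl values of the group at 3.09 ± 0.062 CPM, and 0.793 ± 0.775 CPM in cKO, and its change of −1.95 (SE 0.71) was not called (edgeR adjusted p = 0.116). Mad2l1, whose product binds CDC20, had 53 and 41 counts against 42, 48 and 65, overlapping groups and a change of −0.29 (edgeR adjusted p = 0.659, SE 0.40). Ube2c, the ubiquitin-conjugating enzyme of the complex, had 5 and 33 counts against 18, 13 and 45, again with overlap. The kinase genes Bub1b (7 and 0 counts against 25 to 47) and Ttk (0 and 10 against 9 to 14) were not called. Both had all cKO below all Ctrl in CPM, as 28.7% of the genes tested did. The 6 genes summed to 2.90 and 4.47 CPM in cKO and 8.40, 8.45 and 11.1 CPM in Ctrl.

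Of the 7 kinesin, centromere and spindle genes, 3 were called lower, beside 7.73% of all genes tested. Each of the 3 was all but absent from the cKO libraries. Prc1, which bundles microtubules of the central spindle, was the most abundant in Ctrl. It had 2 and 29 counts in cKO against 74, 53 and 70 in Ctrl, and with that gap between cKO libraries the change of −2.30 (SE 0.92) was not called (edgeR adjusted p = 0.144). Kif11, the kinesin that pushes spindle poles apart, had 2 and 0 counts against 31, 54 and 74. The Ctrl to cKO ratio was 59.9 (exact 95% interval 16.3 to 499), called lower (edgeR adjusted p = 0.0254). Kif20a, a kinesin of cytokinesis, had 0 and 1 counts against 26, 30 and 61, a ratio of 88.2 (15.5 to 3514, edgeR adjusted p = 0.0222). Nusap1, a microtubule-binding protein of the spindle, had 0 and 2 counts against 46, 21 and 38, a ratio of 39.6 (10.7 to 331, edgeR adjusted p = 0.0352). In each of these 3 the counts in Ctrl were at least 21 in every library. The others did not separate so cleanly. Tpx2, which activates Aurora A on the spindle, had 58 counts in cKO 1 and 4 in cKO 2 against 44, 30 and 59, so that cKO 1 was the highest of the 5 libraries in CPM and cKO 2 the lowest. Cenpf had 4 and 25 counts against 16, 5 and 13, and Cenpe had 7 and 0 against 11, 15 and 21, and neither was called.

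Top2a, topoisomerase II alpha, which untangles sister chromatids, had 1 and 0 counts in cKO and 95, 70 and 142 in Ctrl. It had the lowest adjusted p of the 41 genes (edgeR adjusted p = 0.00727), and the Ctrl to cKO ratio was 231 (exact 95% interval 41.2 to 9171). Mki67, the gene of the proliferation marker Ki-67, did not follow it. With 25 and 4 counts against 19, 7 and 36, cKO 1 lay within the Ctrl range in CPM and cKO 2 below it, and the change of −0.58 (SE 1.01) was not called (edgeR adjusted p = 0.741). Ctrl levels of Mki67 were low at 0.868 ± 0.520 CPM, and per transcript length it was among the 3 scarcest of the 41 at 0.083 ± 0.0537 FPKM (fragments scaled by the authors to transcript length and library size). On that length-corrected scale, the highest Ctrl levels of the 41 were those of Cks1b (8.25 ± 1.77 FPKM), Pcna (7.43 ± 0.884 FPKM) and Rrm1 (4.58 ± 1.10 FPKM). Cenpe (0.082 ± 0.0233 FPKM) and Cenpf (0.10 ± 0.0603 FPKM) were as low as Mki67 within their spread.

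Of the replication genes 7 of 15 were called lower, and of the mitosis genes 7 of 26, beside 7.73% of all genes tested. Their median log2 fold changes were −1.69 and −2.02, also with the genes at 0 in cKO set to their bounds. On log2(FPKM + 1) the medians were −0.70 and −0.57, in the opposite order, and on log2(FPKM + 0.1) they were −1.47 and −1.78. The order was thus reversed only with the larger constant added to FPKM, and every other fit kept it. Negative changes made up 11 of 15 and 24 of 26. Both cKO libraries lay below all Ctrl libraries in CPM in 10 of 15 and 19 of 26, beside 28.7% of all genes tested. Summed over the class, replication stood at 45.8 and 39.4 CPM in cKO 1 and 2 and at 83.1, 74.4 and 96.0 CPM in Ctrl, which is 50.4% of the Ctrl mean. For mitosis the sums were 21.0 and 17.7 CPM in cKO and 56.5, 48.0 and 70.5 CPM in Ctrl, 33.2% of the Ctrl mean. In neither class did the sums of the groups overlap. Abundant genes weigh most in such sums. Pcna, not called, held 11.6 of the 42.6 CPM of the cKO mean for replication, and Cks1b, not called, 5.21 of the 19.3 CPM for mitosis. By role, sums ranged from 27.2% (licensing) to 125% (G1/S switch) of the Ctrl mean in replication and from 11.4% to 45.7% in mitosis. The difference between the classes was not tested. Depth differed between them, since the median Ctrl level of replication genes was 4.38 CPM and that of mitosis genes 1.95 CPM, and the median Ctrl FPKM was 1.51 and 0.931. In both cKO libraries, 11 of the 41 genes had under 10 counts each (3 replication, 8 mitosis). Within replication, Pcna, Tyms, E2f1, Ccne1 and Cdt1 had mean cKO levels near or above their Ctrl means, while the helicase and ribonucleotide reductase genes lay below theirs.

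**Figure D4:**
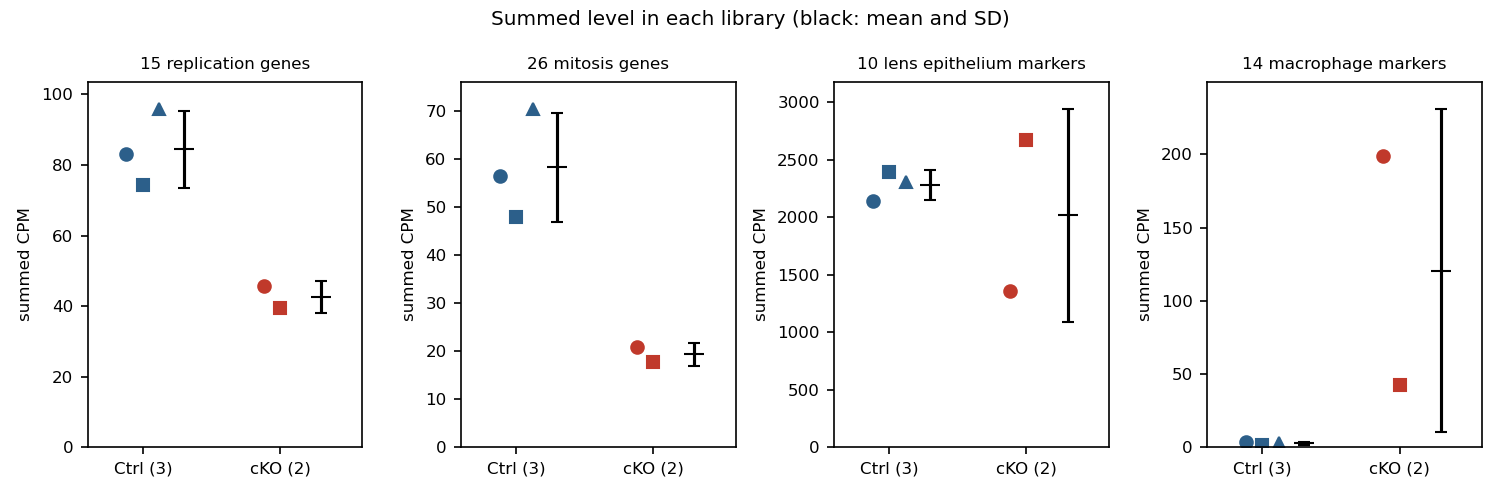
Summed CPM in each library for the 15 replication genes, the 26 mitosis genes, and the markers of lens epithelium and of macrophages, with the mean and SD of each group. Replication sums were 39.4 to 45.8 CPM in cKO and 74.4 to 96.0 CPM in Ctrl, and mitosis sums 17.7 to 21.0 and 48.0 to 70.5 CPM.

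The cKO libraries had similar sums, but their zeros fell on different genes. Of the 41 genes, 10 had 0 counts in cKO 1 and 9 in cKO 2, but only Cdc6, Plk1 and Bub1 were at 0 in both, and none was at 0 in a Ctrl library. Mcm5, Ccnb1, Ccnb2, Aurka, Aurkb and Ttk had 0 counts in one cKO library and at least 10 in the other, 14.6% of the 41 genes, a rule set after these values were seen. Among 8466 genes with Ctrl counts in the same range (means of 11.3 to 422), 5.73% had that pattern in the cKO pair, and 0.0709% to 0.378% had it in pairs of Ctrl libraries. The median absolute log2 difference between cKO 1 and 2 was 0.98 for the 41 genes and 0.66 for those others, against 0.36 to 0.44 and 0.24 to 0.29 in Ctrl pairs. Gaps within the cKO pair were thus wider than in Ctrl for the listed genes and for genes of like abundance. In Ctrl the order was steadier, with Ctrl 3 the highest of the Ctrl libraries for 28 of the 41 genes and Ctrl 2 the lowest for 27.

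**Figure D5:**
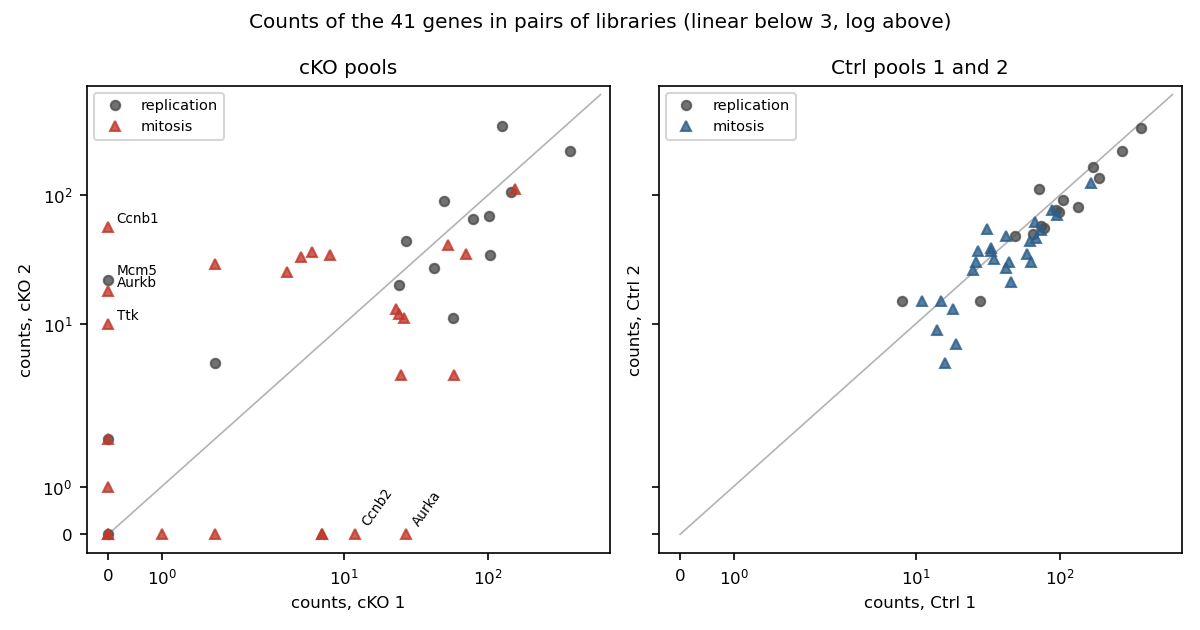
Counts of each of the 41 genes in cKO 1 against cKO 2 and in Ctrl 1 against Ctrl 2, on axes that are linear below 3 counts and logarithmic above, with 6 genes named. Ctrl points lie near the diagonal, whereas Mcm5, Ccnb1, Ccnb2, Aurka, Aurkb and Ttk lie on an axis at 0 in the cKO pair.

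Other genes of the same pathways, taken from lists drawn up by function, also held genes called lower and none called higher. Of 40 further replication genes, 39 were tested, 7 were lower and 0 higher, with a median of −0.27, beside 7.73% of all genes tested called lower. Uhrf1, which recruits the maintenance DNA methyltransferase, had 0 counts in both cKO libraries and 65, 38 and 60 in Ctrl, at least 20.4-fold lower (edgeR adjusted p = 0.0134). Gins1, of the replicative helicase complex, and Pole, the catalytic subunit of polymerase epsilon, were at 0 in cKO too, with Gins1 at least 4.84-fold lower (edgeR adjusted p = 0.0413) and Pole at least 4.47-fold lower (edgeR adjusted p = 0.0462). The abundant Rpa1, a subunit of the single-strand binding protein, and Pold2, a polymerase delta subunit, were not called at −0.25 (SE 0.14) and −0.30 (SE 0.15). Of 42 further mitosis genes, 38 were tested, 11 were lower and 0 higher, with a median of −1.78, and 10 of the 42 had 0 counts in both cKO libraries. As among the 41, many of these genes reached the filter through Ctrl libraries and not by both cKO libraries (12 of the further replication and 26 of the further mitosis genes), so these counts and medians are descriptions too. Anln, Ckap2 and Ect2, which encode proteins of the cleavage furrow (Anln, Ect2) and the spindle (Ckap2), were lower by at least 14.3-fold, 11.7-fold and 11.6-fold in that order (adjusted p by edgeR 0.0168, 0.0228 and 0.0257). Bub3 and Pttg1, the most abundant tested ones, were not called at 0.37 (SE 0.15) and −0.01 (SE 0.39). These lists summed to 86.6% of the Ctrl mean for replication and 63.6% for mitosis.

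Markers of the cell types that whole lenses could hold also differed between the groups. The calls below stand beside 7.73% of all genes tested called lower and 5.76% called higher. Of 10 lens epithelium markers, 4 were called lower (Cdh1, Pax6, Gja1 and Npnt), and Cdh1 had 1 and 0 counts in cKO against 557, 440 and 986 in Ctrl. Foxe3, which lens epithelium needs to keep dividing, had 94 and 8 counts against 492, 300 and 675 and was not called (edgeR adjusted p = 0.0554). Summed, the 10 markers were at 1362 and 2672 CPM in cKO and 2143 to 2393 CPM in Ctrl, so the sum did not separate the groups. Most of that sum came from Dkk3 (1396 CPM in Ctrl) and Sfrp1 (499 CPM in Ctrl), neither of them called, whereas both cKO libraries lay under the Ctrl range for Foxe3, Cdh1, Pax6, Gja1 and Npnt. Of 14 macrophage markers, 10 were tested and 9 were higher, with sums of 199 and 42.6 CPM in cKO and 1.81 to 3.80 CPM in Ctrl. Csf1r had 145 and 128 counts against 5 to 12 in Ctrl, and Adgre1 had 38 and 0 against 0 to 1. Lens fibre markers were abundant in all 5 libraries, at 92303 to 115247 CPM in sum, and 2 of 10 were lower. Sums for endothelium were 22.7 and 22.8 CPM against 13.7 to 18.7 in Ctrl, for fibroblasts and pericytes 25.1 and 18.5 against 31.5 to 32.6, for pigmented and ciliary epithelium 2.08 and 0.298 against 3.29 to 5.07. Of the 6 fibroblast and pericyte markers, 3 were tested, with 1 called lower and 1 called higher. Erythroid (49.9 and 0.819 against 4.05 to 33.3 CPM) and photoreceptor sums (4.86 and 0.894 against 1.46 to 32.8 CPM) overlapped, and the corneal markers Krt5, Krt12 and Krt14 were at 0 in all libraries. The part of these cells in the changes of the 41 genes was not tested.

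The calls rest on all 3 Ctrl libraries. Without Ctrl 1, without Ctrl 2 or without Ctrl 3, none of the 41 genes was called by edgeR, although 16, 15 and 14 were lower at an unadjusted p under 0.05 and the 14 called genes kept a negative change wherever they were tested, with adjusted p of 0.0622 to 0.177. In those fits 0.339%, 0.13% and 0.452% of all genes tested were called lower. Shares of all genes at the unadjusted threshold were not counted there. Without cKO 1, the calls numbered 29 lower and 1 higher, and without cKO 2, 25 lower and 0 higher, while 23.3% and 23.9% of all genes tested were then called lower, with the lone cKO library assumed to vary like the others.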

How the data were processed

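Poly(A) RNA of P14 mouse lens pools (2 cKO, 3 Ctrl) was sequenced as paired reads of 150 bp, per the labels' protocols. The authors deposited a table of expected counts and FPKM for 22183 genes, made with GRCm39 as build and with RSEM and Trimmomatic among the tools, per the submitters' processing notes. The sources used here give neither the aligner nor the strand setting, so reads of antisense partners cannot be told apart. Between 6.03% and 7.47% of the count values of a library were fractional.

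Counts were rounded, filtered with filterByExpr (minimum count 10, total 15), scaled by TMM and tested with edgeR 4.0.16 in R 4.3.3 (glmQLFit, glmQLFTest, group only), on 11724 genes with Benjamini-Hochberg adjustment. The fit had 3 residual degrees of freedom and was tested on simulated data. Standard errors came from the F statistic. A count of 0 allows 3 counts, 0.112 to 0.146 CPM in a library. A fold of "at least" sets the mean Ctrl level against that floor in cKO, without the spread between libraries. Intervals (exact, 95%) cover counting error only. The labels call the pools biological replicates. The authors' FPKM values served for comparisons between genes and, in limma 3.58.1, as an alternative, and DESeq2 1.42.0 was another.

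The members and lists were chosen with earlier results of these data known. Values in every library are given for called members and for the 2 most abundant of each role group, and further members are named with their counts. From the other pathway lists, the 3 called genes with the largest changes and the 2 most abundant are named. E2f3, E2f7, Gins3 and Orc5 are named besides, picked after their values were seen. Promoters came from RefSeq's table (GRCm38.p6), with no base of a GENCODE M21 exon printed.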

Additional observations from a re-analysis of the deposited data

How the results depend on the processing

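Counts of called genes among the 41 (14 lower, 0 higher by the edgeR test) depended most on which libraries were kept. Leaving out 1 library at a time, lower calls ranged from 0 to 29, higher calls from 0 to 1, lower replication calls from 0 to 10 and lower mitosis calls from 0 to 19, while 0.13% to 23.9% of all genes tested were called lower in the same fits. The cause was not tested. With a replicate block, 1 gene was lower (0 replication, 1 mitosis: Top2a), where 107 lower and 68 higher genes were called in all. Deviations of same-numbered libraries from their group means correlated at 0.111 (cKO 1, Ctrl 1) and −0.0834 (cKO 2, Ctrl 2). With n = 2 for cKO, the deviations of cKO 2 mirror those of cKO 1, so these values cannot decide whether the numbers mark pairs. The main fit did not take them as pairs. Lower and higher calls were 12 and 0 with total counts alone, which moved the median of all genes from −0.06 to 0.16, 18 and 0 with DESeq2, 13 and 0 without a filter on low counts, and 14 and 0 or 17 and 0 with log2 FPKM plus 1 or 0.1 in limma. With FPKM plus 1, 11 of the 14 calls were kept, and Cdc6, Bub1 and Ccna2 were lost. Total counts alone lost Mcm7 and Ccna2, and the fit without a filter lost Cdc6. Genes that were not called changed sign in places. Pcna was at 0.14 with total counts alone, 0.10 with FPKM plus 1 and 0.10 with FPKM plus 0.1, and Cenpf was at −0.0387 and −0.21 with FPKM plus 1 and 0.1 and at −0.0858 with the replicate block. With 1 library left out, log2 fold changes ranged from −0.57 to 0.34 for Pcna, −0.39 to 0.35 for Tyms, −0.49 to 0.66 for Cks2, −2.37 to 0.17 for Ube2c, −1.57 to 0.89 for Cenpf, −3.66 to 0.30 for Tpx2 and −2.53 to 0.21 for Mki67. Depth limits the genes with 0 to 3 cKO counts, for which bounds and ratios are given in place of fitted changes.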

Other observations

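Genes of transcription factors known to act on cell cycle promoters were not called in either direction. Of 19 genes of E2F, pocket protein and G2/M factors, 17 were tested and edgeR called 0 lower and 0 higher, with a median of −0.62. At an unadjusted p under 0.05, edgeR gave 5 lower and 0 higher, where 2043 of all 11724 genes tested were lower and 1737 higher. The summed level of the 19 genes was 78.3 ± 0.768 CPM in cKO and 99.2 ± 3.14 CPM in Ctrl, with every cKO library below every Ctrl library. The most abundant, Tfdp1, a partner of E2F proteins, was at 18.3 ± 0.504 against 22.4 ± 0.393 CPM (−0.29, SE 0.14, edgeR adjusted p = 0.211), and E2f6, a repressor of the family, at 16.3 ± 1.39 against 15.1 ± 1.47 CPM (0.12, SE 0.17, edgeR adjusted p = 0.689). Genes named next were chosen after their values were seen. The activator E2f3 had 4 and 12 counts in cKO and 34, 33 and 50 in Ctrl (edgeR adjusted p = 0.0605), and E2f7, a repressor, had 0 and 0 against 11, 16 and 5 (edgeR adjusted p = 0.0587).

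Of the 39 further replication genes tested, 27 had a negative and 12 a positive change. Those named here were picked after their values were seen. Gins3 had 42 and 139 counts in cKO against 19, 19 and 13 in Ctrl (2.16, SE 0.61, edgeR adjusted p = 0.0641). All cKO lay above all Ctrl for Gins3, as for 22.8% of the genes tested and 2 of the 40 listed replication genes. Of the same complex, Gins1 was at 0 in both cKO libraries, and for Gins2 (−0.35) and Gins4 (−0.03) the libraries of cKO and Ctrl overlapped. The origin recognition gene Orc5 had 321 and 482 counts against 193, 177 and 271 (0.73, SE 0.21, edgeR adjusted p = 0.0684). Neither Gins3 nor Orc5 was called.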
